A study of Homo sapiens with 6 samples.

Results

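The genes described here are 10 transcription regulators of the immediate early response: the AP-1 subunits FOS, FOSB, FOSL1, FOSL2, JUN, JUNB and JUND, and the factors EGR1, MYC and IER2. They were taken as the rows of the count and FPKM tables whose symbol equals one of these names, and all 10 of the 10 names were found among 28565 genes. Measurements came from total RNA sequencing of HK-2 cells (6 libraries), an immortalised line of human renal proximal tubule epithelium. Every library came from cells transfected with the overexpression plasmid of a long noncoding RNA, called LncR2 in the sample titles. Of these, 3 libraries were labelled as exposed to the DNA-crosslinking drug cisplatin for 0 h and 3 for 24 h. The cells were incubated for 48 h after transfection. No library with a control plasmid was analysed here, so the plasmid was shared by both groups and its effect was not measured, and time after transfection cannot be told apart from cisplatin. HK-2 is 1 cell line. Nothing in the labels ties replicate libraries to separate dishes of cells. The submitters' design note mentions 2 biological replicates per treatment, so p-values measure only the spread between these libraries.

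AP-1 is a dimer of leucine-zipper proteins in which a JUN protein pairs with a FOS protein or with another JUN protein. FOS, FOSB, EGR1 and IER2 are known as immediate early genes, which are switched on briefly after growth factors or stress, without new protein synthesis, by factors already present such as SRF and CREB. FOSL1 and FOSL2 encode FRA-1 and FRA-2, which lack the strong activation domain of FOS and are typically expressed for longer. MYC drives growth and ribosome production, and its mRNA is short-lived. Cisplatin is known to activate the stress kinases p38 and JNK, of which JNK phosphorylates JUN.

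Libraries at 0 h held 5028881 to 5844246 counts in total, and those at 24 h held 6022268 to 7248754. Principal components were taken of log2(CPM + 1). On the first (40.1% of the variance), 0 h replicates 1 and 2 were at -21.3 and -22.0, and the 24 h libraries at 6.02 to 20.5. Replicate 3 at 0 h was at 0.866. It stood apart on the second component as well, at -27.2. Epithelial markers were present, led by the tight-junction gene CLDN1 with a mean of 1370 CPM (counts scaled to library size) at 0 h and 1315 at 24 h, but CDH1 had at most 1 count in any library. Of the proximal tubule markers 3 were tested, led by GGT1. Summed over the list, proximal tubule markers were at 92.5 to 106 CPM at 0 h and 109 to 121 CPM at 24 h, with 0 of the 3 called. Marker sums were at most 3.47 CPM for blood cells, 0.724 for endothelium and 20.5 for fibroblasts (led by LUM), and of these lists only 1 blood and 2 fibroblast markers had enough counts to be tested, with 0 called.

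The sequences before the RefSeq starts of 8 of these genes share an element that the choice of genes did not use. RefSeq (GRCh38.p14) promoter windows were matched for 8 of the 10 genes, all except FOSL1 and MYC, and the 250 bases before each start were searched on both strands. The letters TGACG, the half-site of the cAMP response element bound by CREB and ATF proteins, were found in 8 of the 8 windows, against 21.2% of 35116 windows of the same length. The 8 windows held 62.0% (JUN) to 74.8% (JUND) GC, and the 35116 were not matched to them in base composition. The CArG box, the binding sequence of SRF, was found in EGR1 alone (2 matches), against 1.16% of windows. Bases further upstream were not searched, so a CArG box there would have been missed. CCAAT was found in JUN, JUNB and JUND and in 32.0% of all windows. TATAAA was found in FOS, FOSB and JUNB and in 10.7% of all windows. The AP-1 site in its exact forms TGAGTCA or TGACTCA was found in 0 of the 8, and in 4.20% of all windows. Other forms of the AP-1 site were not searched and would have been missed. A match is only a run of letters and was not tested for binding, and TGACG overlaps its own reverse complement in the palindromic element of JUND. The 4 windows below are shown because EGR1 and FOSB are among the 3 lowest transcripts of the set and JUNB and JUND are the 2 that were called higher on the scale of the authors' FPKM. Capitals mark any of these matches, and sequences run 5′ to 3′ on the gene's strand, ending at the base before the start.
EGR1: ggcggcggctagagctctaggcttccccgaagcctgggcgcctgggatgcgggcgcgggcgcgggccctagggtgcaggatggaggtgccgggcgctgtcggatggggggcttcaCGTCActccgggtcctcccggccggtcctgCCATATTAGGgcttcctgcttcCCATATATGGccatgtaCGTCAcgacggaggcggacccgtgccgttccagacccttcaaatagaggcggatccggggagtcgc
FOSB: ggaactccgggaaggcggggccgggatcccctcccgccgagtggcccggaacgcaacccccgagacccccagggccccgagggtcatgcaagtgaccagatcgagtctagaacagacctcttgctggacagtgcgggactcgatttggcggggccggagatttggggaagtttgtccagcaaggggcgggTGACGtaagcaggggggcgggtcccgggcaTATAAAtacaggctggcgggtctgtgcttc
JUNB: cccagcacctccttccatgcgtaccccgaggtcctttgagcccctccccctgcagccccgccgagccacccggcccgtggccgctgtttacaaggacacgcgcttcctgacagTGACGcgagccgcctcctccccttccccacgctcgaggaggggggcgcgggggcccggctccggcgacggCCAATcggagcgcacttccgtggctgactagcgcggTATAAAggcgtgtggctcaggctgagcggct
JUND: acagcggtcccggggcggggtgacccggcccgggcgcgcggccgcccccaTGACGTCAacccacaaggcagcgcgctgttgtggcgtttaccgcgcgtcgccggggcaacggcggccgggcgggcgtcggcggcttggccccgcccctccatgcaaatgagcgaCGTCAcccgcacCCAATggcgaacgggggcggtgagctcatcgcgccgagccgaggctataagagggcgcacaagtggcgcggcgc
These lie at chr5:138465229-138465478 (plus strand), chr19:45467746-45467995 (plus), chr19:12791236-12791485 (plus) and chr19:18281623-18281872 (minus). In EGR1 the CArG boxes end 96 and 74 bases before the start, and a TGACG on the opposite strand lies on each side of the pair. In FOSB, TGACG begins 60 bases before the start and TATAAA 30 bases before it, and in FOS the same pair begins at 64 and 33 bases.

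Among the transcript features described here, only a coding GC content above the median was common to all 10 genes. In their longest coding transcript of the GENCODE 29 basic set, JUN, JUNB, JUND and IER2 had a single exon, as did 1.95% of 11401 tested genes with a 3′ UTR of at least 100 bases. Coding GC content was above the median of these genes (51.6%) in 10 of 10, from 58.7% in MYC to 73.3% in JUND. The pentamer ATTTA, the core of AU-rich decay elements, occurred 8.40 times per kb of 3′ UTR in MYC and 6.20 times in FOS. These are at the 98.6th and 95.4th percentile of the genes. IER2 had 0 copies, EGR1 0.81 per kb and JUNB 4.0 per kb, and 5 of the 10 were above the median of 1.81, so a high ATTTA density was not shared by the set.

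FOSB, FOS and EGR1 were far lower than the other genes of the set, and the same division held at both times. Levels between genes are compared in FPKM, fragments per kilobase of gene, scaled to library size, as deposited by the authors. At 0 h the order was FOSL1 (38.2 ± 4.41 FPKM, mean ± SD, n = 3), JUN (38.1 ± 2.98), MYC (30.9 ± 1.79), FOSL2 (29.2 ± 4.30), JUND (21.1 ± 1.72), JUNB (11.7 ± 1.34), IER2 (5.32 ± 0.982), FOSB (0.847 ± 0.0666), FOS (0.783 ± 0.311) and EGR1 (0.667 ± 0.142). The ranges of FOSL1 and JUN overlapped, as did those of MYC and FOSL2, of FOSB and FOS, and of FOS and EGR1. All other neighbours in this order were separated. FOSL1 stood at the 93.5th percentile of tested genes by FPKM, IER2 at the 56.6th and EGR1 at the 9.85th. IER2 was 6.29 times as abundant per length as FOSB, the next gene down, so the wide gap lay between IER2 and the trio FOSB, FOS and EGR1. At 24 h the order began with JUN (43.1 ± 4.34 FPKM), FOSL1 (40.8 ± 4.59), FOSL2 (36.0 ± 2.74), MYC (30.4 ± 1.56) and JUND (29.2 ± 3.14), and the 5 genes below these kept their order. JUN and FOSL1 overlapped at 24 h, as did MYC and JUND, FOSB and FOS, and FOS and EGR1.

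**Figure D1:**
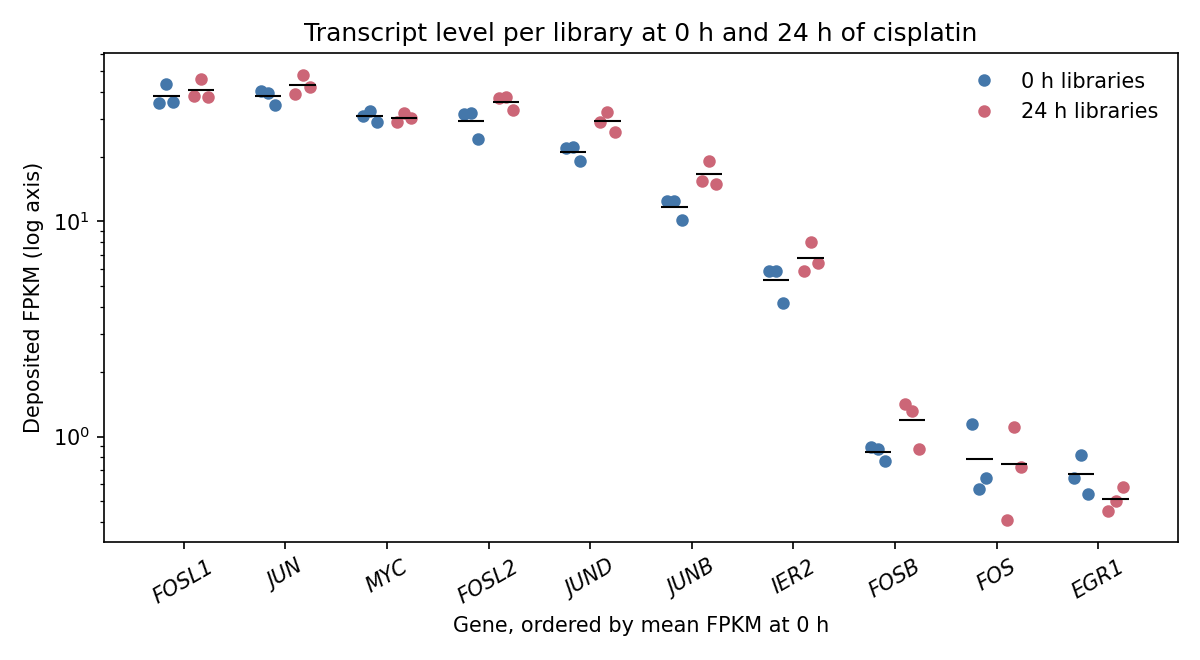
Deposited FPKM (log axis) of each gene in the 3 libraries at 0 h (blue) and the 3 at 24 h (red), with a line at each mean. FOSB, FOS and EGR1 lie between 0.41 and 1.41 FPKM at both times, below the lowest IER2 library at 4.19.

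After 24 h of cisplatin, 0 of the 10 genes passed edgeR's quasi-likelihood test over 13389 genes, in which 2.94% of all genes were called (0.866% higher and 2.08% lower, at a Benjamini-Hochberg adjusted p under 0.05). DESeq2 called 0 of the 10 as well. At an unadjusted p under 0.05, 1 of the 10 (MYC, lower) was reached, against 18.1% of all genes (8.22% higher). Of the 10 log2 fold changes (24 h over 0 h), 5 were above 0, and their median was 0.00 beside -0.00 over all genes tested. The count was also 0 without any single library and without both libraries numbered 3, although without 0 h replicate 3 the calls over all genes were 574 higher and 923 lower. Under TMM scaling the 95% intervals ran from 0.824 to 1.11-fold for JUN, 0.770 to 1.07-fold for FOSL1 and 0.875 to 1.26-fold for FOSL2, and were wider, at 0.480 to 1.37-fold, for FOS. They do not cover the choice of scaling.

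**Figure D2:**
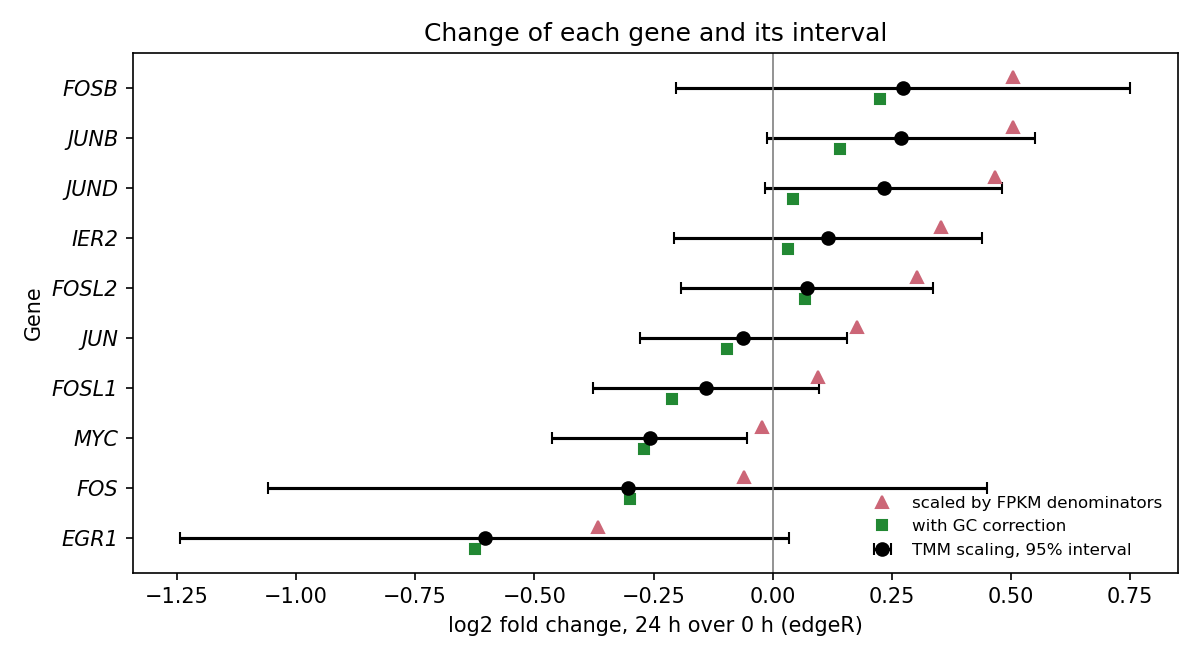
log2 fold change of each gene, 24 h over 0 h, with its 95% interval under TMM scaling (black), and the value when libraries are scaled by the FPKM denominators (red) or corrected for GC content (green). The interval excludes 0 for MYC alone (-0.46 to -0.05), which did not pass the test over all genes.

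Among the FOS proteins' transcripts, FOS itself was close to the limit of these libraries. The 0 h libraries (replicates 1 to 3) held 30, 15 and 19 FOS reads and the 24 h libraries 12, 33 and 22, or 5.98, 2.94 and 3.35 CPM against 1.98, 4.78 and 3.02. The 0 h replicate 1 was highest and the 24 h replicate 1 lowest, and the other four libraries lay between them in mixed order, so the groups overlapped. Its fitted log2 fold change was -0.30 ± 0.36 (SE, edgeR, n = 3 per group, adjusted p = 0.712). The sign depended on 1 library: without 0 h replicate 1 it was 0.06.

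FOSB, the subunit whose truncated form builds up under repeated stimulation in the brain, was counted 44, 44 and 43 times in the 0 h libraries and 77, 74 and 51 times in the 24 h libraries. In CPM these were 8.77, 8.63 and 7.59 against 12.7, 10.7 and 6.99. Replicates 1 and 2 at 24 h lay above all 0 h libraries and replicate 3 below them. The log2 fold change was 0.27 ± 0.22 (n = 3 per group, edgeR adjusted p = 0.568), and was 0.087 without 24 h replicate 1 and 0.48 without 24 h replicate 3. On the opposite strand FOSB overlaps ERCC1, which had 134 to 215 counts per library and a log2 fold change of 0.01 ± 0.15. Whether the authors counted by strand is not given in the sources used here, so the low FOSB counts are uncertain.

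FOSL1, the FRA-1 subunit linked to epithelial migration, was at 116, 140 and 118 CPM at 0 h and 115, 125 and 100 CPM at 24 h. The groups overlapped, with 0 h replicate 2 highest and 24 h replicate 3 lowest. Its log2 fold change was -0.14 ± 0.11 (n = 3 per group, edgeR adjusted p = 0.557) and turned to 0.10 when libraries were scaled by the totals behind the authors' FPKM. Without 0 h replicate 2 it was -0.054, without 24 h replicate 3 -0.063 and without 24 h replicate 2 -0.21. FOSL2, the FRA-2 subunit, was at 383, 379 and 294 CPM at 0 h and 413, 377 and 320 CPM at 24 h. Both groups had their lowest value in replicate 3. For FOSL2 the log2 fold change was 0.07 ± 0.12 (edgeR adjusted p = 0.817), turned to -0.04 without 0 h replicate 3 and to -0.01 without 24 h replicate 1, and was 0.30 with the FPKM totals. An antisense gene in FOSL2, FLJ31356, had at most 3 counts per library.

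Within the FOS family, FOSL1 and FOSL2 made up nearly all of the summed FPKM at both times. FOSL1 held 55.4% ± 3.69 at 0 h and 51.8% ± 2.02 at 24 h (mean ± SD, n = 3 each), and FOSL2 held 42.2% ± 3.28 and 45.8% ± 2.21. FOS held 0.745% to 1.65% at 0 h and 0.528% to 1.29% at 24 h. FOSB held 1.15% to 1.29% and 1.22% to 1.82%. For each of the 4 the groups overlapped.

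**Figure D3:**
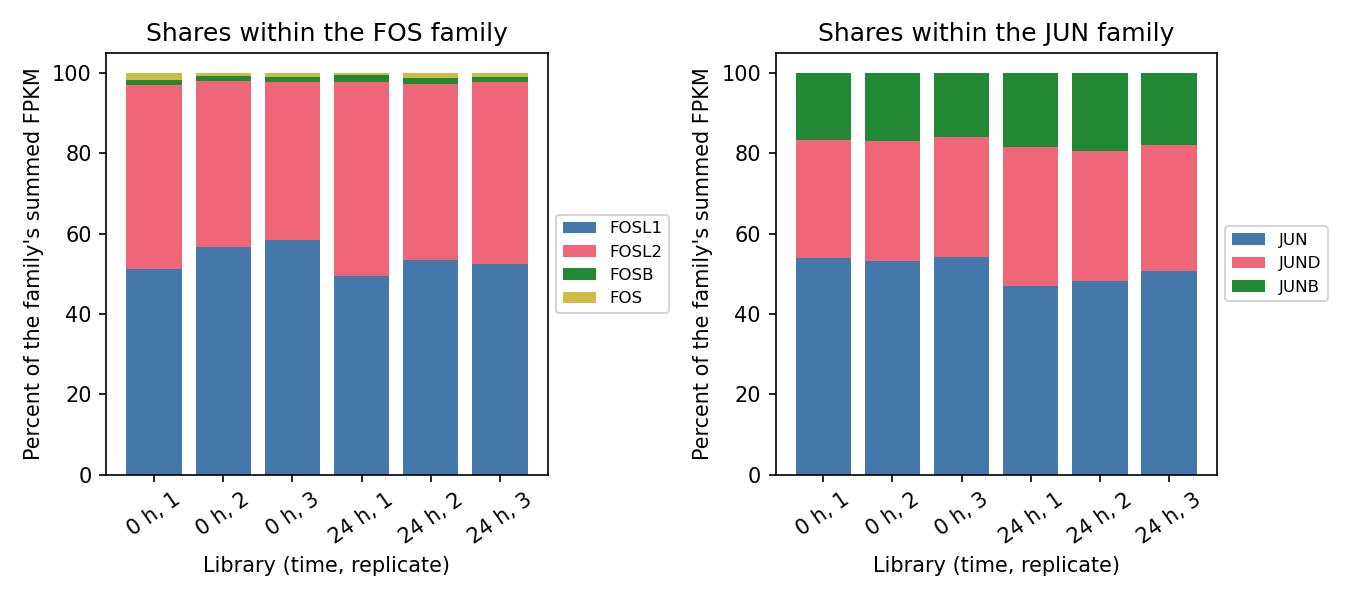
Share of each transcript in the summed FPKM of the FOS family (left) and the JUN family (right), 1 bar per library. FOSL1 and FOSL2 fill nearly all of the left bars, and the JUN share is 53.2% to 54.2% at 0 h and 46.9% to 50.7% at 24 h.

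Among the JUN proteins' transcripts, JUN, the main transactivating subunit, was at 254, 246 and 219 CPM at 0 h and 226, 248 and 214 CPM at 24 h. The groups overlapped over nearly their whole range. Its log2 fold change was -0.06 ± 0.10 (n = 3 per group, edgeR adjusted p = 0.809) and 0.18 with the FPKM totals. JUNB, a weaker activator that can restrain JUN, was at 40.3, 40.0 and 32.8 CPM at 0 h and 45.9, 51.2 and 39.1 CPM at 24 h. At 24 h replicates 1 and 2 lay above all 0 h libraries and replicate 3 within their range. For JUNB the log2 fold change was 0.27 ± 0.13 (edgeR adjusted p = 0.296). JUNB overlaps HOOK2 on the opposite strand, which had 29 to 57 counts per library against 186 to 354 for JUNB, and a log2 fold change of 0.07 ± 0.24. JUND, the subunit that many cells express without stimulation, was at 73.0, 72.9 and 63.6 CPM at 0 h and 87.9, 88.6 and 69.7 CPM at 24 h, with 24 h replicate 3 again the one that overlapped the 0 h range. For JUND the log2 fold change was 0.23 ± 0.12 (edgeR adjusted p = 0.310).

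The calls of JUNB and JUND depended on how libraries were scaled. The authors' FPKM were divided by totals that differed less between libraries than the gene counts do, and when the counts were scaled by those totals the median log2 fold change over all genes shifted by 0.24. On that scale JUNB was at 0.50 (edgeR adjusted p = 0.0167) and JUND at 0.47 (adjusted p = 0.0148), 2 of 10 genes called higher where 17.6% of all genes were, and 0 lower where 1.46% were. With limma on log2(FPKM + 1) the same 2 were called higher, where 12.4% of all genes were, and 0 lower, where 1.03% were. Relative to the shifted median both differences are close to those under TMM. In deposited FPKM, JUNB went from 12.4, 12.5 and 10.1 to 15.5, 19.2 and 14.99 and JUND from 21.97, 22.3 and 19.2 to 29.02, 32.4 and 26.1. The FPKM groups did not overlap for these 2, for FOSL2 and for IER2, 4 of 10 where 33.3% of all genes were higher in this way, and 0 of 10 were lower, as 3.01% of all genes were.

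A ratio between genes of 1 library is free of the scaling. The count of JUNB over that of JUN was 0.159, 0.163 and 0.150 at 0 h and 0.203, 0.206 and 0.183 at 24 h, or 1.26 times as high in the mean. The ratio of JUND to JUN was 0.288, 0.297 and 0.290 at 0 h and 0.389, 0.357 and 0.326 at 24 h, or 1.22 times as high. For both the 3 libraries at 24 h lay above the 3 at 0 h. The ratio of IER2 to JUN was also higher without overlap, by a small margin (0.105 to 0.129 against 0.131 to 0.146). MYC over JUN was 0.655 to 0.709 at 0 h and 0.568 to 0.625 at 24 h, and EGR1 over JUN 0.0137 to 0.0183 and 0.00932 to 0.0122, both lower without overlap. Of the 9 ratios to JUN, 5 thus did not overlap, against 19.7% of all genes tested in ratio to JUN (12.4% higher). All 9 share the JUN count as denominator, so they are not separate results. With 3 libraries against 3 the two-sided exact permutation test gave p = 0.1 for each of the 5, the smallest it can give, and 0.18 after Benjamini-Hochberg adjustment over the 9.

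**Figure D4:**
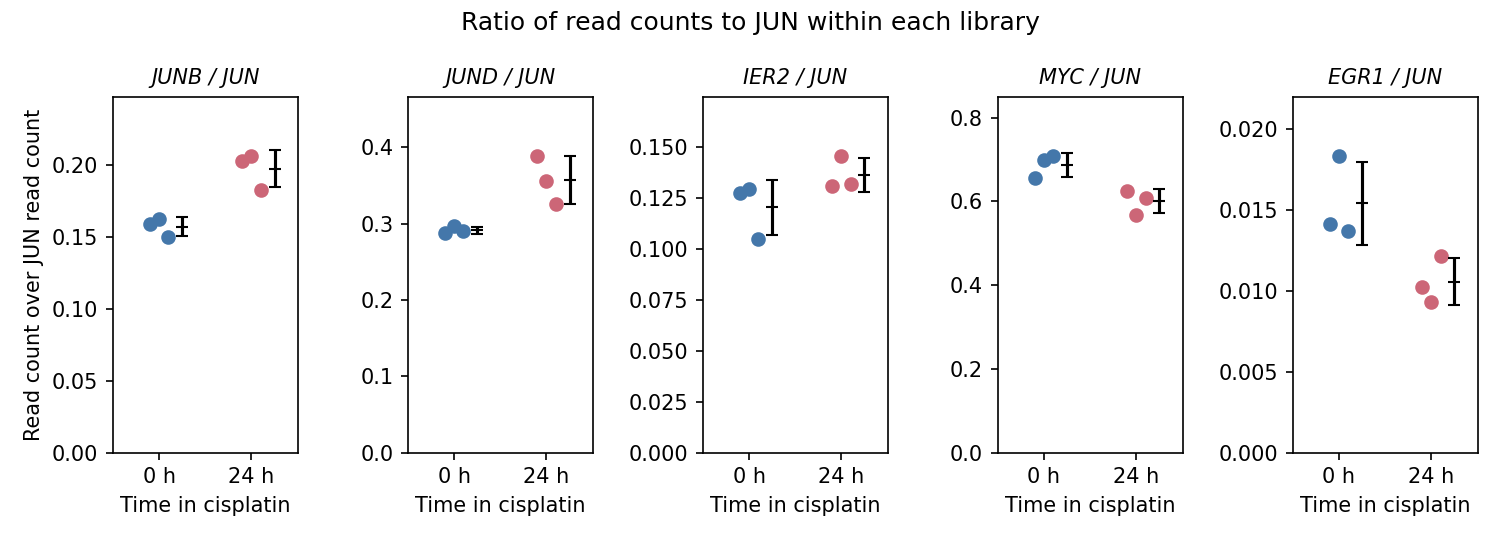
Read count of JUNB, JUND, IER2, MYC and EGR1 over that of JUN in each library at 0 h (blue) and 24 h (red), with the mean and SD of 3 libraries in black. Axes start at 0 and differ between panels. Only the ratios whose groups do not overlap are drawn, and all share the JUN count as denominator.

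Median differences also varied with GC content. Over all genes tested, the median log2 fold change was -0.03 in the first of 5 equal bins of transcript GC and 0.09 in the last, and the 10 genes lie in the upper 2 bins (6 and 4). Transcript GC was 56.7% in JUN, 64.9% in JUNB and 69.7% in JUND. FOSL1, also in the last bin (60.0%), was at -0.14 without the correction below and at -0.21 with it. With a GC correction of each library, chosen after seeing the data, the log2 fold change of JUND was 0.04 ± 0.08 and that of JUNB 0.14 ± 0.09 (edgeR, n = 3 per group). For IER2 it was 0.03 ± 0.12, whereas MYC stayed at -0.27 ± 0.08 and EGR1 at -0.62 ± 0.29.

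EGR1, the zinc-finger factor that is among the fastest genes to respond to growth factors, was the lowest of the set. Its counts were 18, 23 and 17 in the 0 h libraries and 14, 16 and 19 in the others, although the 24 h libraries were larger. In CPM these were 3.59, 4.51 and 3.001 against 2.31, 2.32 and 2.61, and the groups did not overlap. In deposited FPKM the groups did overlap, at 0.64, 0.82 and 0.54 against 0.45, 0.5 and 0.58. The log2 fold change was -0.60 ± 0.30 with a 95% interval from -1.24 to 0.03 (n = 3 per group, edgeR adjusted p = 0.304). It was below 0 in all 19 alternatives, from -0.80 to -0.14, and was called in 0 of them. IER2, a nuclear protein induced with EGR1, was at 32.3, 31.8 and 23.0 CPM at 0 h and 29.5, 36.2 and 28.3 CPM at 24 h. The groups overlapped, with 0 h replicate 3 lowest. Its log2 fold change was 0.12 ± 0.15 (edgeR adjusted p = 0.751) and -0.03 without 0 h replicate 3.

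MYC was at 166, 172 and 155 CPM at 0 h and 141, 141 and 130 CPM at 24 h. Each library at 24 h was below each at 0 h, as in 11.7% of all genes, and MYC and EGR1 were the 2 of 10 with such CPM. The log2 fold change was -0.26 ± 0.10 with a 95% interval from -0.46 to -0.05 (n = 3 per group), and the edgeR adjusted p was 0.163. It was below 0 in all 19 alternatives, and -0.02 on the scale of the FPKM totals, where 31.0, 32.6 and 29.02 FPKM at 0 h stood beside 28.9, 32.0 and 30.2 at 24 h and overlapped. With a block for the replicate number MYC was the 1 of 10 genes called lower, where 7.16% of all genes were, and 0 were called higher, where 5.52% were. Across the alternatives its adjusted p lay between 0.0218 and 0.910.

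For position, GENCODE 29 (GRCh38) puts FOS on chromosome 14 from 75278774 to 75282230, FOSB on 19 from 45467995 to 45475179, FOSL1 on 11 from 65892049 to 65900573 and FOSL2 on 2 from 28392448 to 28417312. JUN lies on chromosome 1 from 58780788 to 58784327, JUNB on 19 from 12791496 to 12793315, JUND on 19 from 18279760 to 18281622, EGR1 on 5 from 138465490 to 138469315 and IER2 on 19 from 13150415 to 13154908. MYC lies on chromosome 8 from 127735434 to 127741434. JUNB, JUND, IER2 and FOSB thus share chromosome 19. The identifiers in the files are ENSG00000170345.9 (FOS), ENSG00000125740.13 (FOSB), ENSG00000175592.8 (FOSL1), ENSG00000075426.11 (FOSL2), ENSG00000177606.6 (JUN), ENSG00000171223.5 (JUNB), ENSG00000130522.5 (JUND), ENSG00000120738.7 (EGR1), ENSG00000136997.14 (MYC) and ENSG00000160888.6 (IER2).

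Other genes of the pathways were counted from lists, beside all genes tested, of which 0.866% were called higher, 2.08% lower and 18.1% reached an unadjusted p under 0.05, with a median log2 fold change of -0.00. Of 15 tested bZIP proteins that can pair with AP-1 or bind related sites, 1 fell and 0 rose (median 0.07). This was JDP2, a repressor that dimerises with JUN, from 16.9 ± 1.65 to 8.46 ± 1.23 CPM (log2 fold change -1.002 ± 0.18, edgeR adjusted p = 0.00486, n = 3 per group), and it was called in all 19 alternatives. CREB5 was at -0.40 ± 0.12 (adjusted p = 0.0878). Of 27 other immediate early genes 1 fell and 0 rose (median -0.09). ID3, an inhibitor of bHLH factors, fell by 0.66 ± 0.15 (adjusted p = 0.0226), a call lost without 0 h replicate 1 or any one 24 h library, without both libraries numbered 3, and in the 3 alternatives on the FPKM scale. Its relative ID1 was at -0.51 ± 0.14 (adjusted p = 0.0633). An unadjusted edgeR p under 0.05 was reached by 9 of the 15 bZIP genes (4 higher) and 10 of the 27 other immediate early genes (5 higher). Both shares were above the 18.1% of all genes, and the lists were not tested as sets.

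Of 25 kinases and factors upstream of the immediate early genes, 0 were called by edgeR (median 0.07, 1 by DESeq2), and 5 reached an unadjusted p under 0.05, a share near that of all genes (18.1%). The EGR1 corepressor NAB1 was at 0.44 ± 0.12 (edgeR adjusted p = 0.0551, n = 3 per group), past the threshold in 11 of 19 alternatives, and MAP2K2, the kinase MEK2, at 0.30 ± 0.11 (adjusted p = 0.158). Of 20 partners and regulators of MYC, 1 fell and 0 rose (median -0.05). It was AURKA, the mitotic kinase that also stabilises MYC proteins, from 102 ± 6.88 to 48.5 ± 3.38 CPM, a log2 fold change of -1.08 ± 0.11 that was called in all 19 alternatives. MYCBP2, a ubiquitin ligase, was at -0.34 ± 0.10 (edgeR adjusted p = 0.0729). An unadjusted edgeR p under 0.05 was reached by 8 of these 20 genes (4 higher), a larger share than the 18.1% of all genes.

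Of 17 transcripts often used as AP-1 targets, 2 rose and 1 fell (median 0.13). The cytokine gene IL6 went from 249 ± 25.1 to 428 ± 39.3 CPM (n = 3 per group), a log2 fold change of 0.78 ± 0.11, and was called in all 19 alternatives. VEGFA, the vascular growth factor, fell by 0.58 ± 0.11, from 214 ± 31.0 to 143 ± 9.40 CPM, and was not called on the FPKM scale, nor when replicate 2 of either time or the third 24 h library was left out. EREG, a ligand of the EGF receptor named after its value was seen because it completes the count, rose by 0.41 ± 0.10 and was called among the fits without 1 library only without 0 h replicate 3. An unadjusted edgeR p under 0.05 was reached by 6 of the 17 AP-1 targets (5 higher), a larger share than the 18.1% of all genes. Of 29 transcripts often used as MYC targets, 1 fell and 0 rose (median 0.06). This was SHMT2, of mitochondrial one-carbon metabolism, from 309 ± 18.3 to 203 ± 10.9 CPM, a log2 fold change of -0.60 ± 0.10 that was called in 17 of 19 alternatives, the exceptions being the 2 limma fits to FPKM. The cyclin CCND2 was at -0.35 ± 0.10 (edgeR adjusted p = 0.0723). An unadjusted edgeR p under 0.05 was reached by 4 of the 29 MYC targets (2 higher), near the share of all genes. Of 20 factors of AU-rich and general mRNA decay 0 were called by edgeR (median -0.08, 0 by DESeq2), and 3 reached an unadjusted p under 0.05, also near the 18.1% of all genes, with the deadenylase scaffold CNOT1 at -0.29 ± 0.10 and the exosome subunit EXOSC2 at 0.27 ± 0.11.

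The counts in these lists moved with the libraries kept and with the scaling. Without 0 h replicate 3, where 4.18% of all genes were called higher and 6.72% lower, the bZIP list had 1 gene higher and 4 lower. The partners and regulators of MYC had 2 and 5, and the other immediate early genes 1 and 3. In the same fit the upstream kinases and factors had 1 and 1, the AP-1 targets 3 and 1, the MYC targets 1 and 2, and the decay factors 0 and 1. On the scale of the FPKM totals, where 17.6% of all genes were called higher and 1.46% lower, 5 of the 15 bZIP genes were higher and 1 lower. The other immediate early genes had 7 of 27 higher and 0 lower, the AP-1 targets 8 of 17 and 0, and the upstream kinases and factors 6 of 25 and 0. Partners and regulators of MYC had 5 of 20 higher and 1 lower, the MYC targets 4 of 29 and 1, and the decay factors 1 of 20 and 0.

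The genes whose profile over the 6 libraries was most like that of a given gene were sought. The measure was the root mean square distance between log2(CPM + 1) values centred on their mean. The added 1 flattens the profiles of FOS and EGR1, which had few CPM. The search covered 10684 or 10685 protein-coding genes with a mean of at least 5 CPM. For MYC these were ZFAND3 (0.02), CLIP1 (0.03) and KCNMA1 (0.03), against a median distance of 0.21. For EGR1 they were TTLL5 (0.06), INTS9 (0.06) and ARFGEF3 (0.07), against 0.31. For JUN they were XXbac-BPG116M5.17 (0.02), MIEF1 (0.02) and CDK16 (0.03), against 0.19. For FOS even the nearest, DECR2 (0.17), ASB2 (0.20) and PARP16 (0.20) stood at larger distances than these, against a median of 0.43.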

How the data were processed

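Ribosomal-RNA-depleted RNA of 6 HK-2 libraries was sequenced in paired ends on a directional library, per the labels' protocols. The authors deposited whole read counts per gene and FPKM for the same libraries. The submitters' processing notes list bcl2fastq, TopHat2, edgeR and GRCh38; the counter, annotation and strand setting were not given in the sources used here. The deposited counts were tested with edgeR 4.0.16 (R 4.3.3; quasi-likelihood, TMM, filterByExpr with a minimum count of 10) over 13389 genes, 3 libraries against 3, with Benjamini-Hochberg adjustment and a threshold of 0.05. CPM are counts scaled to the TMM-adjusted library size. The totals behind the FPKM were estimated from 3572 genes with over 300 counts. Alternatives used DESeq2 1.42.0, limma 3.58.1 on log2(FPKM + 1) or log2(FPKM + 0.1), other scalings and filters, a replicate block, left-out libraries and a GC correction. The genes, lists and naming rule (the 10 genes, the 2 smallest p of each list, and the 3 nearest profiles of FOS, EGR1, JUN and MYC) were chosen with earlier results of these data known. Gene features came from GENCODE 29 and promoters from RefSeq.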

Additional observations from a re-analysis of the deposited data

How the results depend on the processing

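Of the 10 genes, FOSB, EGR1 and MYC kept their direction and, outside the replicate block for MYC, their side of the threshold in all 19 alternatives, and JUNB and JUND kept their direction. Leaving out 1 library turned the log2 fold change of FOS (0.060 without 0 h replicate 1; range -0.68 to 0.060), of FOSL2 (-0.041 without 0 h replicate 3 and -0.014 without 24 h replicate 1; range -0.041 to 0.16) and of IER2 (-0.028 without 0 h replicate 3; range -0.028 to 0.20). It turned for FOSL1 to 0.095 with the FPKM totals, to 0.093 with limma on log2(FPKM + 1) and to 0.095 on log2(FPKM + 0.1), and for JUN to 0.18, 0.17 and 0.17. Those 3 alternatives each called 2 of the 10 genes higher (JUNB and JUND). Over all genes they called 2354, 1657 and 1632 higher, against 116, and 195, 138 and 136 lower, against 278, and rises were 92.3% of calls in each, against 29.4%. With no filter 345 were higher and 395 lower, with the GC correction (chosen after seeing the data) 277 and 451, and without both libraries numbered 3, 306 and 539. Leaving out 1 library gave 21 to 574 higher and 92 to 923 lower, with both extremes from 24 h replicate 2 and 0 h replicate 3. Deviations of same-numbered libraries correlated at 0.26, -0.01 and 0.46, and those of differently numbered libraries at -0.39 to 0.24. The highest of the latter was 0 h replicate 2 with 24 h replicate 1. These correlations do not settle whether the numbers mark pairs. The numbers were not taken as pairs because the labels do not state it. A fit with the replicate block called 739 higher and 959 lower and 1 of the 10 genes, MYC (-0.26, edgeR adjusted p = 0.0218, n = 3 per group, where 7.16% of all genes were lower). With that block the bZIP list had 2 genes higher and 5 lower, the other immediate early genes 4 and 5, and the partners and regulators of MYC 2 and 5. The upstream kinases and factors had 2 and 1, the AP-1 targets 4 and 1, the MYC targets 1 and 2, and the decay factors 0 and 2. Counts limit FOS, FOSB and EGR1, at 12 to 77 per library, and the cause of these differences was not tested.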
